A study of Homo sapiens with 36 samples.

Results

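The genes described here are 10 parts of the negative feedback loop that FGF signalling through ERK switches on, and of its transcriptional output: the Sprouty genes *SPRY1*, *SPRY2* and *SPRY4*, the related *SPRED1* and *SPRED2*, the ERK phosphatases *DUSP4* and *DUSP6*, and the ETS transcription factors *ETV4*, *ETV5* and *ETV1*. They were chosen by name as parts of the pathway, with earlier results of these data known. All 10 were present among the 28516 gene symbols of the count table, and all 10 were among the 19689 genes tested. Their RNA was measured by RNA-seq in cultured human neural stem cells (hNSC, a commercial line grown in serum-free neural stem cell medium) that were collected 48 h after lentiviral transduction. The 36 libraries fall into 6 conditions of 6. CRISPR-activation was used in MEIS1-OE and MEIS2-OE to raise the transcription factor gene *MEIS1* or its paralog *MEIS2*. A Cas9 that does not cut was directed to the promoter by a guide RNA and carried activation domains, and the parts were delivered by 3 viruses. In MEIS1-KO and MEIS2-KO, a single virus delivered cutting Cas9 with a guide RNA, and a pair of viruses with different guides was mixed for each gene. Cells with a non-targeting guide RNA in the same vectors are the controls, named ctrl-OE for the activation system and ctrl-KO for the knockout system. The comparisons ask whether the level of a gene follows that of *MEIS1* or *MEIS2*. The knockout libraries come from mixed cell populations and not from clones. The labels do not say whether libraries of a condition came from separate cultures, so p-values measure the spread between these libraries, which may be in part technical.

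As background, an FGF that binds its receptor recruits adaptor proteins, which activate RAS and then the kinases RAF, MEK and ERK. ERK in turn induces its own restraints. Sprouty proteins interfere with the step from receptor to RAF, SPRED proteins recruit the RAS inactivator neurofibromin, and the phosphatases DUSP6, in the cytoplasm, and DUSP4, in the nucleus, remove the activating phosphates from ERK. *ETV4*, *ETV5* and *ETV1* form the PEA3 subfamily of ETS factors and are used as readouts of FGF signalling in many embryonic tissues. Neural stem cells in culture are usually kept proliferating with FGF2.

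MEIS proteins bind the core sequence TGACAG, and ETS factors bind the core CCGGAA. The 250 bases before the annotated start of a gene's canonical transcript were read from GRCh37 (the hg19 build of the count table) for 14551 of the 19689 tested genes, those with a protein-coding entry in GENCODE, and searched for these letters and their reverse complements, CTGTCA and TTCCGG. The motifs share no overlap in the sequences shown. TGACAG was present in 10.8% of these windows and CCGGAA in 22.3%. The window of *DUSP4* is not reported here. Among the windows of the other 9 members, TGACAG occurred 1 time, in the window of *ETV1*, and CCGGAA occurred 1 time, in that of *SPRY2*. The windows of *SPRY1*, *SPRY4*, *SPRED1*, *SPRED2*, *DUSP6*, *ETV4* and *ETV5* held neither. The following 3 sequences are shown because their genes behaved differently: *SPRY2* was the member called in every comparison of a perturbation with its control, *SPRY4* rose in MEIS2-KO, where *SPRY2* fell, and *ETV1*, whose window holds the MEIS core, was called in no comparison. Each is written 5′ to 3′ in the direction of the gene, with matches in capitals. The 250 bases of *SPRY2* lie before every annotated exon of the gene. Those of *SPRY4* and of *ETV1* lie within the span of their gene, because another transcript starts further upstream, and may include exon bases of other transcripts. For *ETV1* only the 30 bases around the match are given.
SPRY2, chr13:80915262-80915511, minus strand: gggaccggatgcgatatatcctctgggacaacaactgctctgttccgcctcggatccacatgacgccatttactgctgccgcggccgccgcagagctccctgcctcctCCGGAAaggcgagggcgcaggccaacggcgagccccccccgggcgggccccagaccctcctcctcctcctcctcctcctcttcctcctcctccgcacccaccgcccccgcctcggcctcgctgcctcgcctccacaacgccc
SPRY4, chr5:141704587-141704836, minus strand: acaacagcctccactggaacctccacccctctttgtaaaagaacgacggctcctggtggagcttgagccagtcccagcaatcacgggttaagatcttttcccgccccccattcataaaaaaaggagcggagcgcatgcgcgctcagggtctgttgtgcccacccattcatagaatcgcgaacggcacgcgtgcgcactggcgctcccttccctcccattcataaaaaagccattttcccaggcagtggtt
ETV1, chr7:14029397-14029426, minus strand: aagccgcctgatTGACAGcccgaaatctga
The ETS core of *SPRY2* lies at positions -142 to -137 from the start, and the MEIS core of *ETV1* at -123 to -118. A match is a description of letters and not evidence of binding, and its absence concerns this window alone.

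The total count over genes was 15429985 in the shallowest and 22940493 in the deepest library (median 20324720), and each of the 10 genes had between 717 and 13908 reads in every library. The coefficient of variation within a condition went down to 1.67%, for *SPRY2* in ctrl-KO. Levels are given as CPM, counts scaled to a common library size, here after TMM normalisation. The targeted genes followed the labels: *MEIS1* was 310.2 ± 14.3 CPM in MEIS1-OE against 17.8 ± 1.102 CPM in ctrl-OE and 8.96 ± 1.74 CPM in MEIS1-KO against 25.7 ± 1.66 CPM in ctrl-KO (SD, n = 6), and *MEIS2* was 824 ± 20.04 CPM in MEIS2-OE against 22.6 ± 1.23 CPM and 12.1 ± 0.936 CPM in MEIS2-KO against 25.8 ± 1.58 CPM. All 10 markers of neural stem cells that were looked up, among them *SOX2*, *SOX1*, *NES*, *VIM* and *PAX6*, were at or above 1 CPM in every condition. Markers of other cell types were present too: 5 of 8 neuronal markers (not *DCX*, *RBFOX3* or *STMN2*), 2 or 3 of 5 astrocyte markers (not *GFAP* or *ALDH1L1*), 3 or 4 of 4 endothelial markers, 1 or 2 of 6 oligodendrocyte markers, 5 of 6 mesenchymal markers, 1 of 3 pluripotency markers (not *POU5F1* or *NANOG*) and 0 or 1 of 4 markers of microglia and blood were at or above 1 CPM, depending on the condition. These included *COL3A1* (178 CPM in ctrl-OE and 574 CPM in ctrl-KO) and *LIN28A* (301 and 492 CPM). Of the 36 libraries, 3 stood apart from their condition across all genes. The root mean square deviation from the condition mean was 0.306 on the log2 scale for MEIS1-OE replicate 3, 0.294 for MEIS1-KO replicate 6 and 0.264 for ctrl-OE replicate 6, where the condition medians were 0.148, 0.172 and 0.141.

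Relative to ctrl-OE, 4 of the 10 genes rose in MEIS1-OE (*SPRY1*, *SPRY2*, *SPRED2* and *ETV4*) and 3 rose in MEIS2-OE (*SPRY1*, *SPRY2* and *SPRED1*), and none fell. The call is an adjusted p under 0.05 in edgeR's quasi-likelihood test, with the Benjamini-Hochberg adjustment made over every tested gene; by the same rule 9.10% of all tested genes were called in MEIS1-OE (5.52% higher and 3.58% lower) and 1.35% in MEIS2-OE (1.07% higher and 0.279% lower). In MEIS1-KO 1 gene fell relative to ctrl-KO, *SPRY2*, where the share over all tested genes was 1.46% (1.03% higher and 0.432% lower). In MEIS2-KO *SPRY4* and *ETV4* rose while *SPRY2* and *SPRED1* fell, 4 of 10 genes against 10.0% of all tested genes (4.04% higher and 5.98% lower). The libraries of the perturbed condition and its control did not overlap for 2 genes in MEIS1-OE (all tested genes 4.38%), 3 in MEIS2-OE (1.33%), 1 in MEIS1-KO (1.39%) and 4 in MEIS2-KO (6.44%). The median log2 fold change of the 10 genes was 0.13 in MEIS1-OE, 0.043 in MEIS2-OE, 0.0066 in MEIS1-KO and 0.014 in MEIS2-KO, and that of all tested genes was -0.0013, -0.0093, 0.0033 and -0.011. None of the called members exceeded an absolute log2 fold change of 0.58 in these comparisons, where the share of all tested genes called beyond it was 2.84%, 0.498%, 0.290% and 1.58%. The overexpression comparisons share the 6 ctrl-OE libraries and the knockout comparisons share the 6 ctrl-KO libraries, so their values are set side by side without a test of their overlap. Without the 3 libraries that stood apart, 5 members were called in MEIS1-OE, 3 in MEIS2-OE, 2 in MEIS1-KO and 5 in MEIS2-KO. In that fit the calls over all tested genes rose as well, from 1791 to 3611 in MEIS1-OE and from 1974 to 2965 in MEIS2-KO. For MEIS2-OE and MEIS1-KO they were at most 306 and 458 under any alternative, against 266 and 287 as reported. The summed level of the 10 neural stem cell markers was 3128 to 4058 CPM in ctrl-OE, 3432 to 4366 in MEIS1-OE and 3059 to 3755 in MEIS2-OE, and 4565 to 5110.0 CPM in ctrl-KO, 4892 to 6240.2 in MEIS1-KO and 5126 to 6239 in MEIS2-KO, so that it did not overlap between ctrl-KO and MEIS2-KO. *VIM* and *NES* make up most of this sum, whereas *SOX2*, *SOX1* and *PAX6* of the same list were lower in MEIS2-KO. Values of the remaining markers of the list are not given gene by gene. *SOX2* was at 221 to 275 CPM in MEIS2-KO and 283 to 322 CPM in ctrl-KO, *SOX1* at 75.2 to 89.3 and 101 to 107 CPM, and *PAX6* at 23.05 to 32.3 and 34.6 to 38.4 CPM, each without overlap. In MEIS1-KO *SOX1* (84.96 to 98.8 CPM) and *PAX6* (22.6 to 32.8 CPM) were also below ctrl-KO without overlap. The sum of the 4 endothelial markers was 203 to 251 CPM in MEIS2-KO and 169 to 184 CPM in ctrl-KO, and that of the 5 astrocyte markers 21.9 to 26.3 and 28.1 to 32.6 CPM, again without overlap. The part of these markers in the results was not tested. In bulk RNA, fewer cells of a type and less RNA per cell cannot be told apart.

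**Figure D1:**
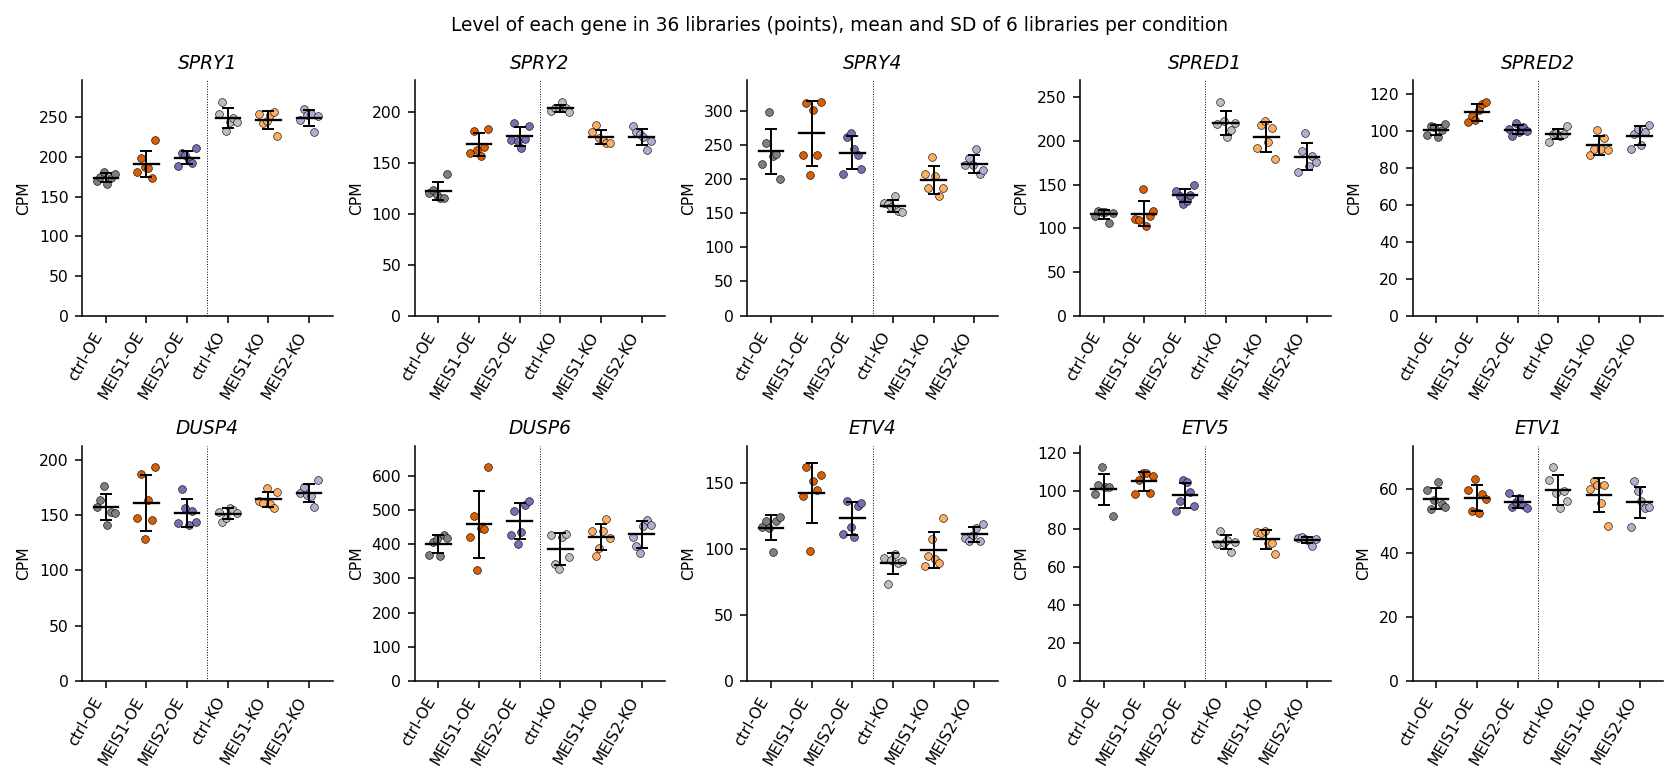
Level of each of the 10 genes in CPM (vertical axes, starting at 0) in the 6 conditions (horizontal axes), with 1 point per library, a line at the mean and bars for the SD of 6 libraries. The dotted line separates the CRISPR-activation from the knockout libraries; for *SPRY2* the 6 ctrl-OE libraries lie below all MEIS1-OE and MEIS2-OE libraries, and the 6 ctrl-KO libraries lie above all MEIS1-KO and MEIS2-KO libraries.

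Of the 10 genes, *SPRY2* alone was called in all 4 comparisons of a perturbation with its control, higher after each overexpression and lower after each knockout. Over all 19689 tested genes, 7 (0.0356%) showed this pattern, *SPRY2* included. *SPRY2* lies on the minus strand of chromosome 13 between 80910111 and 80915261 of GRCh37, and its protein is induced by growth factors and restrains RAS-ERK signalling below receptor tyrosine kinases. The lowest, median and highest library had 116, 119.5 and 139.7 CPM in ctrl-OE, 157, 164 and 183 CPM in MEIS1-OE and 165, 173 and 189.5 CPM in MEIS2-OE. Every overexpression library was above every ctrl-OE library, and the highest ctrl-OE library was replicate 6, which stood apart across all genes. The log2 fold change was 0.46 (SE 0.045, adjusted p = 4.17e-10) in MEIS1-OE, an increase of 37.5%, and 0.53 (SE 0.045, adjusted p = 4.64e-11) in MEIS2-OE, an increase of 44.1% (edgeR's quasi-likelihood test). In ctrl-KO the libraries lay close together, with 201, 204 and 210.5 CPM. They had 169, 174 and 188 CPM in MEIS1-KO and 163, 177 and 186 CPM in MEIS2-KO, and every knockout library was below every ctrl-KO library. In the fit, the log2 fold change was -0.21 (SE 0.045, adjusted p = 0.00586) in MEIS1-KO and -0.22 (SE 0.045, adjusted p = 0.00154) in MEIS2-KO by the same edgeR test, which is a fall by 13.8% in each. Without the 3 libraries that stood apart, the log2 fold changes were 0.51 in MEIS1-OE and -0.20 in MEIS1-KO. Over 17 alternatives the adjusted p in MEIS1-KO reached at most 0.055, above 0.05 without the libraries of replicate number 3 or of number 5, and the other 3 calls held in all 17.

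The overexpression and knockout comparisons have no library in common. Of the 19689 tested genes, 17 (0.0863%) were called higher in MEIS1-OE and lower in MEIS1-KO, and *SPRY2* was the 1 member among them. For *MEIS2* the number was 28 genes (0.142%), and these included *SPRY2* and *SPRED1*. No member was called lower after overexpression and higher after knockout of the same paralog, a pattern of 7 genes for *MEIS1* and 6 for *MEIS2*. When *MEIS1* and *MEIS2* were compared directly, *SPRY2* differed by a log2 fold change of -0.067 (SE 0.045, adjusted p = 0.468) between MEIS1-OE and MEIS2-OE and of 0.00059 (SE 0.045, adjusted p = 1.0) between MEIS1-KO and MEIS2-KO (edgeR's quasi-likelihood test), neither of which was called. In the order of means, ctrl-OE (122 CPM) was lowest and ctrl-KO (204 CPM) highest, and the 4 perturbed conditions lay between 168 and 176 CPM with overlapping libraries.

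*SPRY1*, on the plus strand of chromosome 4 between 124317950 and 124324915 and best known as an inhibitor of FGF and GDNF signalling during organ development, rose with each overexpression by less than *SPRY2*. Its lowest, median and highest library had 166, 174 and 181 CPM in ctrl-OE, 173, 187 and 221 CPM in MEIS1-OE and 189, 199 and 211 CPM in MEIS2-OE. All 6 MEIS2-OE libraries were above all ctrl-OE libraries, as were 4 of 6 MEIS1-OE libraries. The log2 fold change was 0.19 (SE 0.045, adjusted p = 0.0119) in MEIS2-OE and 0.14 (SE 0.045, adjusted p = 0.0488) in MEIS1-OE (edgeR's quasi-likelihood test). The call in MEIS1-OE was lost under 8 of 17 alternatives, among them other size factors and DESeq2 (adjusted p up to 0.184), and that in MEIS2-OE under 2, without the libraries of replicate number 2 or 4. After knockout its libraries overlapped with those of ctrl-KO (233 to 269.9 CPM), at 227 to 257 CPM in MEIS1-KO and 232 to 260.1 CPM in MEIS2-KO, with log2 fold changes of -0.015 and 0.0029 that were not called.

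*SPRY4*, on the minus strand of chromosome 5 between 141689992 and 141706020 and an ERK target that restrains RAF activation, rose in MEIS2-KO, where *SPRY2* fell. The lowest, median and highest library had 151, 161 and 175 CPM in ctrl-KO, 175, 196 and 233 CPM in MEIS1-KO and 207, 221 and 244 CPM in MEIS2-KO. Every MEIS2-KO library and 5 of 6 MEIS1-KO libraries were above every ctrl-KO library. In the fit, the log2 fold change was 0.47 (SE 0.088, adjusted p = 0.000569) in MEIS2-KO, an increase of 38.3% that was called under all 17 alternatives, and 0.31 (SE 0.088, adjusted p = 0.073) in MEIS1-KO, which was not called (edgeR's quasi-likelihood test). The value in MEIS1-KO passed the threshold under 5 of 17 alternatives, among them DESeq2 and the fit without MEIS1-OE replicate 3, a library outside the comparison that enters the shared estimate of the spread (lowest adjusted p 0.0205). Between the knockouts the log2 fold change was -0.16 (SE 0.088, adjusted p = 0.855) for MEIS1-KO against MEIS2-KO by the same edgeR test, so that a difference between them was not shown. In the activation libraries *SPRY4* varied more, with 201, 235 and 299 CPM in ctrl-OE, 206, 268 and 314 CPM in MEIS1-OE and 208, 239.6 and 268 CPM in MEIS2-OE. These groups overlapped, and neither log2 fold change (0.15 and -0.013) was called. The lowest MEIS1-OE library was replicate 3. Without it the value in MEIS1-OE was 0.21 (adjusted p = 0.0896 in edgeR), and without all libraries of replicate number 3 it was 0.29 (adjusted p = 0.0128 in edgeR), a call. Without the 3 libraries that stood apart, *SPRY4* was called higher in MEIS1-OE than in MEIS2-OE, at 0.23 (adjusted p = 0.0406 in edgeR) against 0.16 with them.

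*SPRED1* fell in MEIS2-KO and rose in MEIS2-OE, and *SPRED2* rose in MEIS1-OE. Both encode membrane-associated inhibitors of RAS that act together with neurofibromin, and *SPRED1* is mutated in Legius syndrome. *SPRED1*, on the plus strand of chromosome 15 between 38545037 and 38649450, had 106, 118 and 120.0 CPM in the lowest, median and highest ctrl-OE library, 102, 113 and 145 CPM in MEIS1-OE and 128, 138 and 149 CPM in MEIS2-OE. All MEIS2-OE libraries were above all ctrl-OE libraries, and of the MEIS1-OE libraries only replicate 3 was. The log2 fold change was 0.25 (SE 0.064, adjusted p = 0.0297) in MEIS2-OE and 0.013 (SE 0.064, adjusted p = 0.951) in MEIS1-OE (edgeR's quasi-likelihood test); the call in MEIS2-OE was lost under 6 of 17 alternatives, 1 of which left out ctrl-OE replicate 6, with adjusted p up to 0.25. In the knockout system it had 205, 220.1 and 245 CPM in ctrl-KO, 179.9, 207 and 223 CPM in MEIS1-KO and 165, 179 and 209.8 CPM in MEIS2-KO, and 5 of 6 MEIS2-KO libraries were below all ctrl-KO libraries. Its log2 fold change was -0.28 (SE 0.063, adjusted p = 0.00344) in MEIS2-KO, called under all 17 alternatives, and -0.11 (SE 0.063, adjusted p = 0.537) in MEIS1-KO by the same edgeR test. The direct comparison of MEIS1-OE with MEIS2-OE gave -0.24 (SE 0.064, adjusted p = 0.012) in edgeR, so *SPRED1* was lower in MEIS1-OE, a call lost under 4 of 17 alternatives (adjusted p up to 0.0904).

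*SPRED2*, on the minus strand of chromosome 2 between 65537985 and 65659771, varied little: the coefficient of variation within a condition was 2.35% to 5.501%. The lowest, median and highest library had 96.7, 101 and 103 CPM in ctrl-OE, 105, 109.6 and 116 CPM in MEIS1-OE and 97.1, 100.4 and 104 CPM in MEIS2-OE. Every MEIS1-OE library was above every library of both other activation conditions. The increase of 9.43%, a log2 fold change of 0.13 (SE 0.038, adjusted p = 0.0219), was called by edgeR's quasi-likelihood test and lost under 5 of 17 alternatives (adjusted p up to 0.133). Against MEIS2-OE the log2 fold change was 0.13 (SE 0.038, adjusted p = 0.0261) by the same edgeR test, a call lost under 5 of 17 alternatives, among them the fit of only the groups compared (adjusted p up to 0.132). In the knockouts it was -0.091 in MEIS1-KO and -0.011 in MEIS2-KO, and neither was called. The remaining relative, *SPRED3*, was less abundant, at 24.99 ± 1.69 CPM in ctrl-KO and 30.3 ± 1.04 CPM in MEIS2-KO (SD, n = 6). It rose in MEIS2-KO with a log2 fold change of 0.28 (SE 0.055, adjusted p = 0.000956) in edgeR's quasi-likelihood test, the opposite direction to *SPRED1*.

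**Figure D2:**
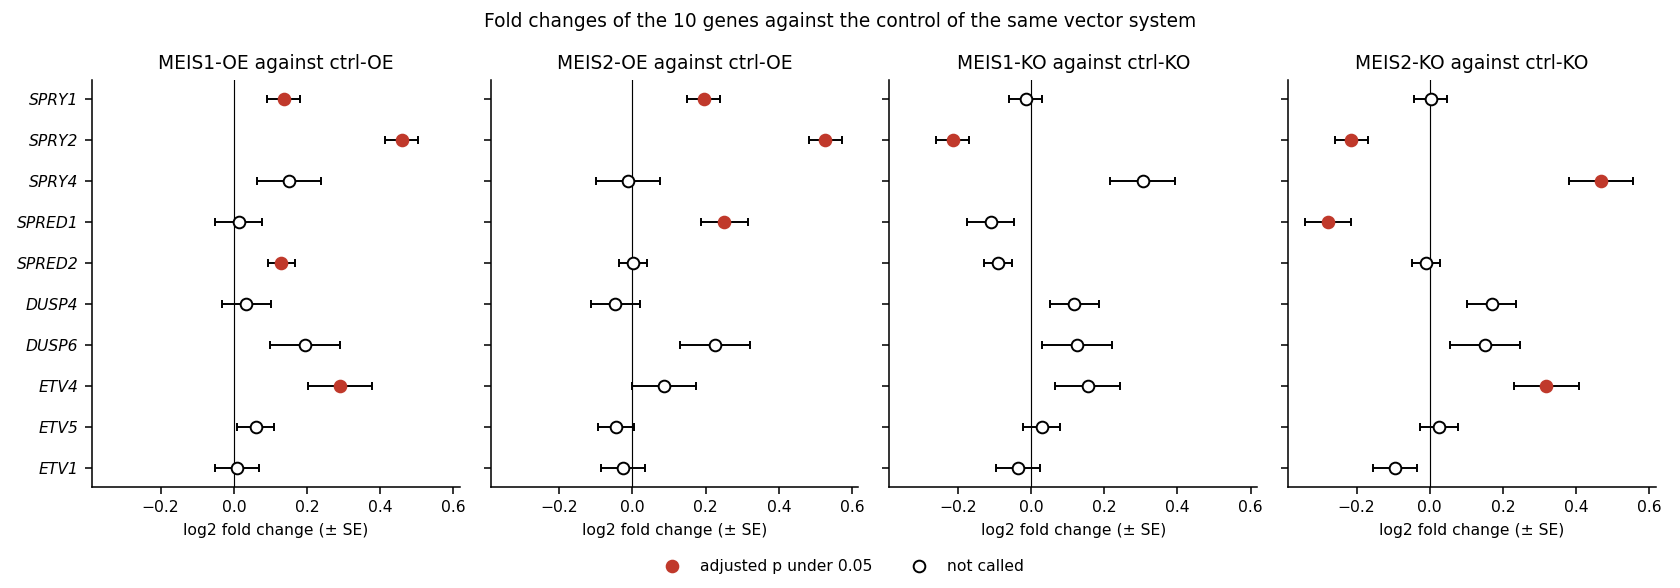
Log2 fold change of each gene (horizontal axes, bars for the SE) in the 4 comparisons of a perturbed condition with the control of its vector system, 6 libraries against 6. Filled points have an adjusted p under 0.05; *SPRY2* is filled in every panel, at 0.46, 0.53, -0.21 and -0.22, and *DUSP4*, *DUSP6*, *ETV5* and *ETV1* are open in every panel.

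*DUSP6* and *DUSP4*, the phosphatases, were called in no comparison. *DUSP6*, on the minus strand of chromosome 12 between 89741012 and 89746278, was the most abundant of the 10 genes per length of transcript, at 110.3 CPM per kilobase in ctrl-OE and 106 in ctrl-KO; the range over the other 9 genes was 8.81 (*ETV1*) to 66.9 (*SPRY1*) in ctrl-OE and 9.23 (*ETV1*) to 95.7 (*SPRY1*) in ctrl-KO. These lengths are of the canonical GENCODE transcripts, which need not be those the authors counted on. Its libraries ranged from 366 to 426 CPM in ctrl-OE, 325 to 626 CPM in MEIS1-OE and 401 to 528 CPM in MEIS2-OE. The lowest and the highest of all 36 values are the MEIS1-OE replicates 3 and 6. All 4 log2 fold changes were above 0, at 0.19 (SE 0.10, adjusted p = 0.246) in MEIS1-OE, 0.22 in MEIS2-OE (adjusted p = 0.512), 0.13 in MEIS1-KO (adjusted p = 0.70) and 0.15 in MEIS2-KO (adjusted p = 0.361) by edgeR's quasi-likelihood test. Without MEIS1-OE replicate 3 the value in MEIS1-OE was 0.28 (adjusted p = 0.0299 in edgeR) and passed the threshold. *DUSP4*, on the minus strand of chromosome 8 between 29190581 and 29208201, was steadier, and its 6 MEIS2-KO libraries (158 to 181 CPM) all lay above the ctrl-KO libraries (143 to 157 CPM). Its log2 fold change of 0.17 (SE 0.067, adjusted p = 0.107) in edgeR's quasi-likelihood test did not pass the adjustment. It was called under 2 of 17 alternatives. These were the fit of only the groups compared and the fit without the 3 libraries that stood apart, none of which is in this comparison.

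Of the ETS factors of the PEA3 subfamily, *ETV4* rose in MEIS1-OE and in MEIS2-KO, and *ETV5* and *ETV1* were not called against the controls. *ETV4*, on the minus strand of chromosome 17 between 41605212 and 41656988, had 97.6, 119 and 124 CPM in the lowest, median and highest ctrl-OE library, 98.5, 148 and 162 CPM in MEIS1-OE and 109, 124 and 136 CPM in MEIS2-OE. Of the 6 MEIS1-OE libraries 5 were above all ctrl-OE libraries, and the remaining library was replicate 3. The log2 fold change in MEIS1-OE was 0.29 (SE 0.087, adjusted p = 0.0268); without MEIS1-OE replicate 3 it was 0.38 (adjusted p = 0.00038), with edgeR's quasi-likelihood test in each case. In the knockout system the values were 73.4, 91.2 and 95.9 CPM in ctrl-KO, 87.2, 93.5 and 123 CPM in MEIS1-KO and 106, 109 and 119 CPM in MEIS2-KO, and every MEIS2-KO library was above every ctrl-KO library. In the fit, the log2 fold change was 0.32 (SE 0.088, adjusted p = 0.016) in MEIS2-KO and 0.15 (SE 0.088, adjusted p = 0.54) in MEIS1-KO by the same edgeR test. The calls of *ETV4* were lost under 5 of 17 alternatives in MEIS1-OE (adjusted p up to 0.224) and 2 of 17 in MEIS2-KO (up to 0.0731). The annotated span of *ETV4* overlaps that of *DHX8* on the opposite strand, which was looked up after the values of *ETV4* were seen and whose log2 fold changes were -0.024 in MEIS1-OE and -0.0089 in MEIS2-KO. *ETV5*, on the minus strand of chromosome 3 between 185764103 and 185828107, ranged from 86.8 to 113 CPM in ctrl-OE and from 67.7 to 78.7 CPM in ctrl-KO, and its 4 log2 fold changes lay between -0.045 and 0.059. The annotated span of *ETV5* overlaps that of *DGKG* on the same strand, and the part of this overlap in the counts of *ETV5* was not tested. *ETV1*, on the minus strand of chromosome 7 between 13930854 and 14031050, was the least abundant per length of transcript, at 56.9 ± 3.28 CPM in ctrl-OE and 59.6 ± 4.65 CPM in ctrl-KO (SD, n = 6), with log2 fold changes between -0.10 and 0.0078.

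More genes were called between the control conditions than between any perturbed condition and its control. Between ctrl-OE and ctrl-KO 6 of the 10 genes were called, 3 in each direction, where 51.4% of all tested genes were called (27.5% higher and 23.9% lower in ctrl-OE). *SPRED1* was lower in ctrl-OE by a log2 fold change of -0.93 (SE 0.064, adjusted p = 2.3e-15), *SPRY2* by -0.74 (SE 0.045, adjusted p = 9.57e-17) and *SPRY1* by -0.52 (SE 0.045, adjusted p = 1.62e-12) in edgeR's quasi-likelihood test. *SPRY4* was higher by 0.58 (SE 0.088, adjusted p = 6.39e-07), *ETV5* by 0.47 (SE 0.051, adjusted p = 5.36e-10) and *ETV4* by 0.39 (SE 0.088, adjusted p = 0.000323) in the same edgeR test. The libraries of these 6 genes did not overlap between the controls (all tested genes 31.8%), and these calls were made under all 17 alternatives. Beyond an absolute log2 fold change of 0.58 were 2 members, *SPRED1* and *SPRY2*, and 22.1% of all tested genes. Thus *SPRY4* and the ETS factors *ETV4* and *ETV5* were higher, and *SPRY1*, *SPRY2* and *SPRED1* lower, in the cells that received the activation system. The summed level of the 10 neural stem cell markers was 3128 to 4058 CPM in ctrl-OE and 4565 to 5110.0 CPM in ctrl-KO, with all 10 at or above 1 CPM in each, and that of 6 mesenchymal markers, of which *DCN* was below 1 CPM, was 337 to 533 and 702 to 914 CPM. Lower sums in ctrl-OE without overlap were also measured for the neuronal (389 to 566 against 928 to 967 CPM), astrocyte (8.46 to 14.7 against 28.1 to 32.6 CPM), endothelial (106 to 134 against 169 to 184 CPM), oligodendrocyte (27.8 to 30.2 against 32.8 to 39.4 CPM) and pluripotency markers (284 to 321 against 441 to 535 CPM). Of the pluripotency markers only *LIN28A* reached 1 CPM. The sum of the microglia and blood markers was higher in ctrl-OE without overlap, at 1.39 to 1.77 against 0.838 to 1.27 CPM. The part of these markers in the result was not tested. *MEIS1* and *MEIS2* were themselves lower in ctrl-OE than in ctrl-KO. Their log2 fold changes were -0.53 (SE 0.071, adjusted p = 5.84e-08) and -0.19 (SE 0.051, adjusted p = 0.00159) in edgeR's quasi-likelihood test. The vector system, the number of viruses, whether Cas9 cuts and the levels of *MEIS1* and *MEIS2* cannot be told apart here.

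The MEIS1 and MEIS2 contrasts subtract the effect of knockout from that of overexpression, each taken against its own control, so that a gene that follows the level of the paralog adds up over both arms. *SPRY2* had a contrast of 0.67 (SE 0.064, adjusted p = 4.46e-10) for *MEIS1* and of 0.74 (SE 0.064, adjusted p = 9.69e-11) for *MEIS2* in edgeR's quasi-likelihood test, and was the 1 member called above 0.58 in either (all tested genes 1.41% and 0.985%). For *MEIS1*, *SPRED2* was also called, at 0.22 (SE 0.054, adjusted p = 0.0108) in edgeR, which made 2 of 10 genes against 3.48% of all tested genes. *ETV4* was at 0.14 without a call, and at 0.31 (adjusted p = 0.0313 in edgeR) without the 3 libraries that stood apart. For *MEIS2*, *SPRED1* at 0.53 (SE 0.090, adjusted p = 0.000227) and *SPRY4* at -0.48 (SE 0.12, adjusted p = 0.0245) were called by the same edgeR test, which made 3 of 10 genes against 2.57%. The negative sign of *SPRY4* means that its rise in MEIS2-KO was larger than its change in MEIS2-OE. Its call was lost without the libraries of replicate number 1, 2, 4 or 5 (adjusted p up to 0.0906). In the direct comparison of MEIS1-OE with MEIS2-OE, 2 of 10 genes were called, *SPRED1* and *SPRED2* in opposite directions (all tested genes 7.75%, with 4.93% higher and 2.82% lower in MEIS1-OE), and 1 member, *SPRED2*, did not overlap between them (all tested genes 4.09%). Without the 3 libraries that stood apart, *SPRY4* and *ETV4* were called too, *ETV4* at 0.29 (adjusted p = 0.00122 in edgeR) against 0.21 with them. Between MEIS1-KO and MEIS2-KO no member was called by edgeR or DESeq2 (all tested genes 0.0152% in edgeR), and 2, *SPRED1* and *SPRED2*, had an unadjusted p under 0.05 in edgeR, as did 5.68% of all tested genes.

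**Figure D3:**
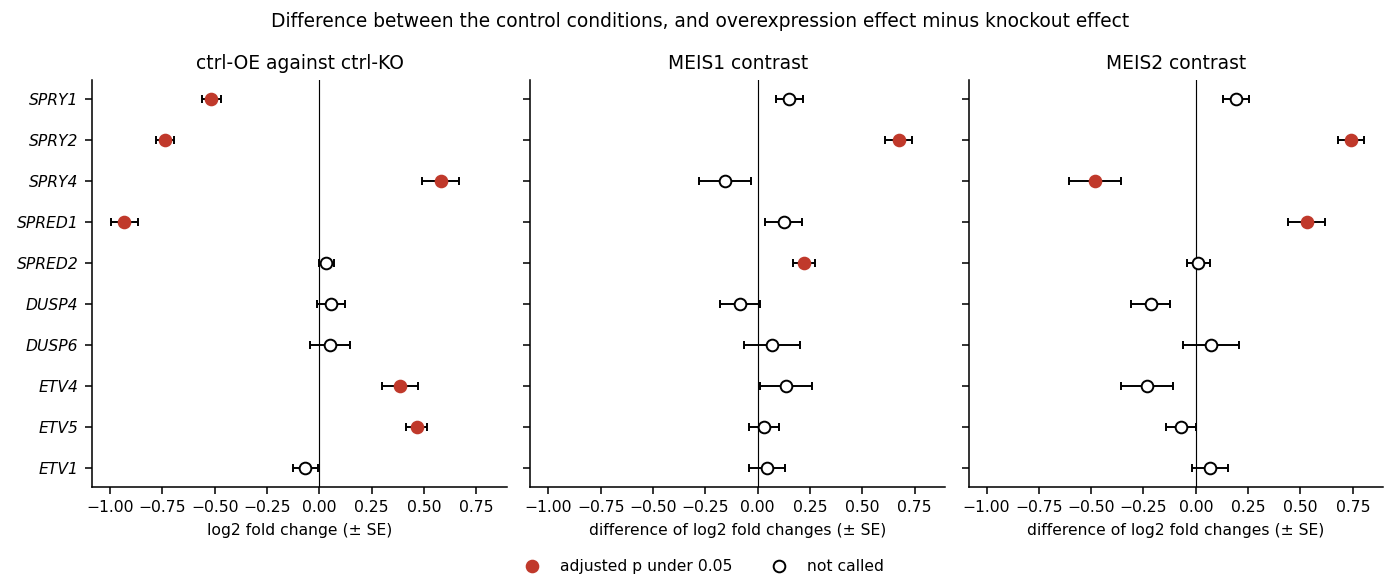
Log2 fold change of ctrl-OE against ctrl-KO (left) and overexpression effect minus knockout effect for *MEIS1* (middle) and *MEIS2* (right), with bars for the SE and filled points for an adjusted p under 0.05. *SPRY2* is at -0.74 in the left panel and at 0.67 and 0.74 in the others.

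The remainder of the pathway was looked up in lists of its ligands, receptors, relay proteins, inhibitors and targets, some of which share genes. The shares of all tested genes called, given above, are the background for these counts. Of 22 FGF genes, 14 were tested, since *FGF3*, *FGF4*, *FGF5*, *FGF6*, *FGF7*, *FGF16*, *FGF21* and *FGF22* had fewer than 10 reads over all libraries. *FGF2*, the ligand usually added to such cultures, was at 20.96 ± 0.808 CPM in ctrl-OE and 32.8 ± 3.06 CPM in ctrl-KO. In MEIS1-OE, 1 of 14 rose, *FGF11*, a member of the intracellular FGF group, from 29.3 ± 1.45 CPM in ctrl-OE to 39.9 ± 3.07 CPM, a log2 fold change of 0.45 (SE 0.052, adjusted p = 2.58e-08) in edgeR. *FGF13*, of the same group, rose in MEIS2-OE by 0.26 (SE 0.069, adjusted p = 0.043) in edgeR, a call that held under 12 of 17 alternatives. In MEIS2-KO *FGF14* and the secreted *FGF10* fell, by 0.66 (SE 0.17, adjusted p = 0.00855) and 0.65 (SE 0.19, adjusted p = 0.0216) on the log2 scale in edgeR, at 4.21 ± 0.621 CPM against 6.55 ± 0.402 CPM for *FGF10*, and none of the 14 was called in MEIS1-KO (0 of 14 in edgeR). Of 13 tested receptors and co-receptors, *FGFR3* and *FGFR2* fell in MEIS1-OE by 0.58 (SE 0.13, adjusted p = 0.00225) and 0.37 (SE 0.10, adjusted p = 0.0125) on the log2 scale in edgeR; the heparan sulfate carriers *SDC2* in MEIS2-OE (0.17) and *GPC4* in MEIS1-KO (0.27) rose, calls that held under 11 and 11 of 17 alternatives, and none was called in MEIS2-KO. The median log2 fold change in MEIS1-OE was 0.070 for the ligands and 0.054 for the receptors, and in MEIS2-KO 0.0013 and 0.083.

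Of 26 genes of the relay from receptor to ERK, 1 was called in MEIS1-OE, 0 in MEIS2-OE, 1 in MEIS1-KO and 5 in MEIS2-KO, where 9.10%, 1.35%, 1.46% and 10.0% of all tested genes were called. The adaptor *SHC1* was the gene called in MEIS1-OE (0.22, SE 0.063, adjusted p = 0.0227) and in MEIS1-KO (0.33, SE 0.063, adjusted p = 0.00229), and it rose in MEIS2-KO too (0.46, SE 0.063, adjusted p = 8.51e-06), all by edgeR's quasi-likelihood test. Its level was 366 ± 16.1 CPM in ctrl-KO, 459 ± 50.4 CPM in MEIS1-KO and 504 ± 40.5 CPM in MEIS2-KO (SD, n = 6). The small GTPase *RRAS* (0.56) and the scaffold *KSR1* (0.22) also rose in MEIS2-KO, calls that held under 13 and 14 of 17 alternatives. Of the 5 relay genes called in MEIS2-KO, 3 were higher and 2 lower. Among 18 other inhibitors, *PEA15*, which holds ERK in the cytoplasm, rose in MEIS1-OE from 282 ± 22.2 CPM in ctrl-OE to 409 ± 42.4 CPM, a log2 fold change of 0.54 (SE 0.058, adjusted p = 4.02e-09) in edgeR, and was -0.016 in MEIS2-OE without a call. *IL17RD*, an inhibitor of FGF receptors that is itself part of the FGF synexpression group, rose in MEIS1-OE (0.28) and MEIS2-KO (0.20). *LRIG3* rose in MEIS1-OE (0.31) and MEIS2-OE (0.37), while *LRIG1*, which promotes the degradation of receptor tyrosine kinases, fell in each (-0.16 and -0.23). The call of *LRIG1* in MEIS1-OE held under 7 of 17 alternatives. In MEIS2-KO 3 of 18 were called, *SPRED3* and *IL17RD* upwards and the RAS inactivator *RASA2* downwards (-0.24, a call that held under 11 of 17 alternatives), and in MEIS1-KO 0 of 18 in edgeR. The median of the inhibitors was 0.072 in MEIS1-OE, -0.0080 in MEIS2-OE, -0.011 in MEIS1-KO and -0.065 in MEIS2-KO, and that of the relay 0.014, 0.015, -0.0058 and -0.00072.

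Of 8 other MAP kinase phosphatases, 3 rose in MEIS1-OE and 1 rose in MEIS2-KO. The ERK phosphatase *DUSP5* (0.30, SE 0.093, adjusted p = 0.0371) was at 16.6 ± 2.95 CPM in MEIS1-OE, whereas *DUSP9* (0.76) and the JNK and p38 phosphatase *DUSP10* (1.08) were below 1 CPM there; the edgeR calls of these 3 held under 11, 12 and 11 alternatives. *DUSP8* rose in MEIS2-KO by 0.88 (SE 0.24, adjusted p = 0.0142) in edgeR, to 2.998 ± 0.6899 CPM. Among 19 other genes that ERK is known to induce, 2 rose in each overexpression, *EPHA4* and *PHLDA1*. The ephrin receptor *EPHA4* went from 9.39 ± 1.55 CPM in ctrl-OE to 15.3 ± 2.97 CPM in MEIS1-OE and 17.5 ± 1.42 CPM in MEIS2-OE, log2 fold changes of 0.71 (SE 0.10, adjusted p = 8.77e-07) and 0.90 (SE 0.10, adjusted p = 1.74e-08) in edgeR, and was called under all 17 alternatives in each. In the knockouts the AP-1 subunit *FOSL1* rose, from 11.6 ± 0.636 CPM in ctrl-KO to 16.96 ± 2.64 CPM in MEIS1-KO and 18.3 ± 1.44 CPM in MEIS2-KO, with log2 fold changes of 0.55 (SE 0.11, adjusted p = 0.00229) and 0.66 (SE 0.10, adjusted p = 6.48e-05) in edgeR, as did the early response gene *IER3* (0.51 and 0.70), whose call held under 8 of 17 alternatives in MEIS1-KO and under 17 in MEIS2-KO. In MEIS2-KO 6 of the 19 rose, *PHLDA2* (1.16) at 1.15 ± 0.3895 CPM among them, and the early response factor *EGR2* fell (-0.89). The median log2 fold change of the 19 genes was 0.21 in MEIS1-OE, 0.15 in MEIS2-OE, 0.10 in MEIS1-KO and 0.13 in MEIS2-KO. In the knockouts *EPHA4* was -0.17 and -0.21 without a call.

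Among 20 other ETS factors, 5 rose in MEIS1-OE, 0 were called in MEIS2-OE or MEIS1-KO by edgeR, and 2 rose and 2 fell in MEIS2-KO. *ELF4* (0.52, SE 0.069, adjusted p = 4.44e-07), *ETS2* (0.49, SE 0.081, adjusted p = 3.26e-05) and *FLI1* (0.49, SE 0.071, adjusted p = 2.44e-06) had the largest of the 5 increases in edgeR, and for *ELF4* the level went from 16.5 ± 1.53 CPM to 23.7 ± 2.43 CPM. Compared directly, *ELF4* and *ETS2* were higher in MEIS1-OE than in MEIS2-OE by 0.42 (SE 0.069, adjusted p = 2.47e-05) and 0.42 (SE 0.082, adjusted p = 0.000386) in edgeR. In MEIS2-KO *ETS1* rose (0.27) and *ELF2* (-0.23) and *GABPA* (-0.22) fell. The median of these 20 genes was 0.17 in MEIS1-OE and 0.10 in MEIS2-KO. Of 14 proteins that bind Sprouty or SPRED proteins or modify them, 0 were called by edgeR in either overexpression. *CAV1*, which encodes caveolin, a membrane protein that binds Sprouty, rose in MEIS1-KO (0.49, SE 0.10, adjusted p = 0.0041) and MEIS2-KO (0.62, SE 0.10, adjusted p = 6.48e-05), and *DYRK1A*, a kinase that phosphorylates SPRY2, fell in MEIS2-KO (-0.19), with edgeR's quasi-likelihood test. The median of the 14 was 0.0016 in MEIS1-KO and -0.054 in MEIS2-KO.

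**Figure D4:**
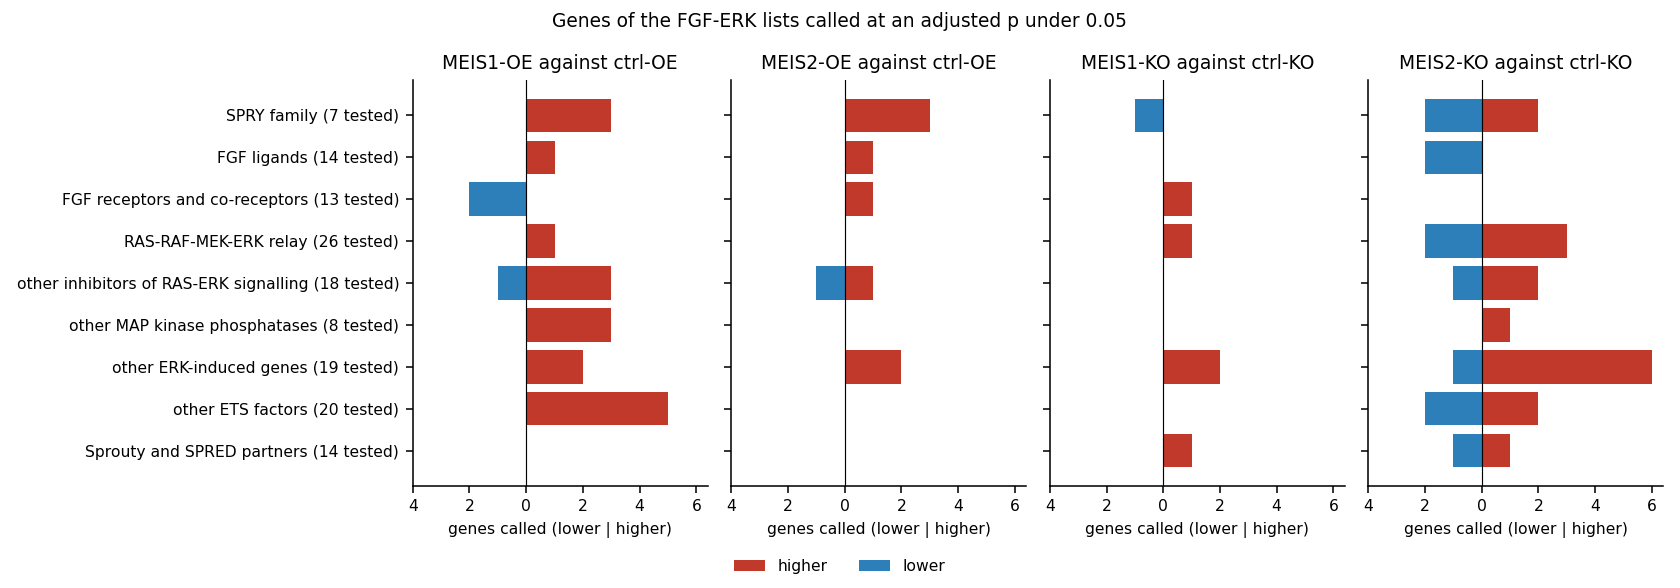
Number of genes of each list called higher (right of 0) or lower (left of 0) at an adjusted p under 0.05 in the 4 comparisons with a control, with the number of genes tested beside each list name. The bars show 5 other ETS factors higher in MEIS1-OE and 6 other ERK-induced genes higher in MEIS2-KO; the list of the SPRY family contains 5 of the 10 genes described here.

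Between the controls, 7 of 14 ligands were lower and 3 higher in ctrl-OE, with *FGF10* at 1.32 ± 0.7396 CPM against 6.55 ± 0.402 CPM in ctrl-KO, and with *FGF19* and *FGF8*, the other ligands with the largest changes, below 1 CPM in both. Of 13 receptors, 7 were lower and 3 higher. The lower genes included *FGFR2* at 7.57 ± 1.12 CPM against 15.9 ± 1.25 CPM and *SDC2* at 286 ± 14.6 CPM against 511 ± 15.9 CPM. Among the higher genes was *FGFR4*, with a log2 fold change of 1.96 (SE 0.22, adjusted p = 1.06e-09) in edgeR's quasi-likelihood test. Of 26 relay genes, 11 were higher and 3 lower, and of 8 other phosphatases 4 were higher and 0 lower (edgeR's quasi-likelihood test, 51.4% of all tested genes called). Among the ERK-induced genes 11 of 19 were higher, with the neuropeptide precursor *VGF* at 69.3 ± 13.7 CPM against 14.3 ± 1.898 CPM, and 5 were lower, with *EPHA4* at 9.39 ± 1.55 CPM against 27.3 ± 2.26 CPM.

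The genes whose pattern was most like that of a member were sought among 13454 genes with a mean of at least 1 CPM, by Pearson's r over the 36 libraries of log2 CPM minus the mean of the control of the same vector system. The points share libraries and conditions, and r is a description. For *SPRY2* the nearest genes were *BAALC* (r = 0.96), *ST8SIA4* (0.95), *LPAR1* (0.92), *SPOCK1* (0.92) and *FAM167A* (0.91). *BAALC* had log2 fold changes of 0.92 in MEIS1-OE, 0.87 in MEIS2-OE, -0.32 in MEIS1-KO and -0.40 in MEIS2-KO, and *ST8SIA4*, a polysialyltransferase gene, 0.63, 0.62, -0.29 and -0.42. All 5 had the signs of *SPRY2* in the 4 comparisons, which is what the measure selects. For *SPRY4* the nearest were *TUFT1* (0.87), *FOSL1* (0.86), *CCNK* (0.85), *ACTA2* (0.83) and *SOX9* (0.83), and *FOSL1* is also 1 of the listed ERK-induced genes. For *DUSP6* they were the immediate early genes *JUN* (0.78) and *IER2* (0.77), the matricellular protein genes *CYR61* (0.74) and *CTGF* (0.74), and *KLF6* (0.72), at lower r than the nearest genes of *SPRY2* and *SPRY4*.

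The libraries of a condition also differ among themselves, and the members were compared over these differences. For each of the 45 pairs of members, log2 CPM minus the condition mean was correlated over the 36 libraries, with permutation tests (100000 permutations of libraries within conditions, two-sided, smallest possible p 1e-05) and adjustment over the 45 pairs. Of these, 6 pairs passed the threshold with each of Pearson's r and Spearman's rho, 5 positive and 1 negative, and the median r of all pairs was 0.17. No share is given for pairs of other genes, and some libraries stood apart across all genes. Whether 6 of 45 pairs is more than among unrelated genes was therefore not tested. *SPRY4* and *DUSP4* gave Pearson's r = 0.77 (permutation p = 4e-05, adjusted p = 0.000562) and Spearman's rho = 0.69 (permutation p = 0.00047, adjusted p = 0.0063), and r was 0.68 without the 2 libraries farthest from the median of *SPRY4*. Within the activation libraries alone r was 0.85, and within the knockout libraries 0.37. *DUSP4* and *ETV4* gave Pearson's r = 0.70 (permutation p = 1e-05, adjusted p = 0.00045) and Spearman's rho = 0.64 (permutation p = 0.00018, adjusted p = 0.0063), with r = 0.57 without the farthest 2 libraries and 0.74 and 0.68 within the activation and knockout libraries. *SPRY4* and *ETV5* gave Pearson's r = 0.59 (permutation p = 0.00077, adjusted p = 0.00693) and Spearman's rho = 0.61 (permutation p = 0.00056, adjusted p = 0.0063), with r = 0.67 without the farthest 2 and 0.64 and 0.50 within the systems.

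*SPRED1* and *ETV1* gave Pearson's r = 0.65 (permutation p = 5e-05, adjusted p = 0.000562) and Spearman's rho = 0.58 (permutation p = 0.00082, adjusted p = 0.00738), with r = 0.63 without the farthest 2 libraries. The negative pair was *ETV4* and *ETV1*, factors of the same subfamily, with Pearson's r = -0.65 (permutation p = 2e-05, adjusted p = 0.00045) and Spearman's rho = -0.59 (permutation p = 0.00031, adjusted p = 0.0063); r was -0.54 without the farthest 2, -0.82 in the activation libraries and -0.59 in the knockout libraries. *SPRY1* and *SPRY2* gave Pearson's r = 0.50 (permutation p = 0.00423, adjusted p = 0.0317) and Spearman's rho = 0.49 (permutation p = 0.00593, adjusted p = 0.0381), with r = 0.43 without the farthest 2 and 0.23 within the knockout libraries. MEIS1-OE replicate 3 lies at the edge of several of these plots, with 206 CPM of *SPRY4*, 128 of *DUSP4*, 325 of *DUSP6* and 98.5 of *ETV4*, each the lowest of its condition, and 145 of *SPRED1*, the highest. Without the 3 libraries that stood apart, r was 0.74 for *SPRY4* and *DUSP4*, 0.61 for *DUSP4* and *ETV4*, 0.56 for *SPRED1* and *ETV1* and -0.49 for *ETV4* and *ETV1*. The labels give no extraction or sequencing batch, so batches within a condition could not be separated.

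**Figure D5:**
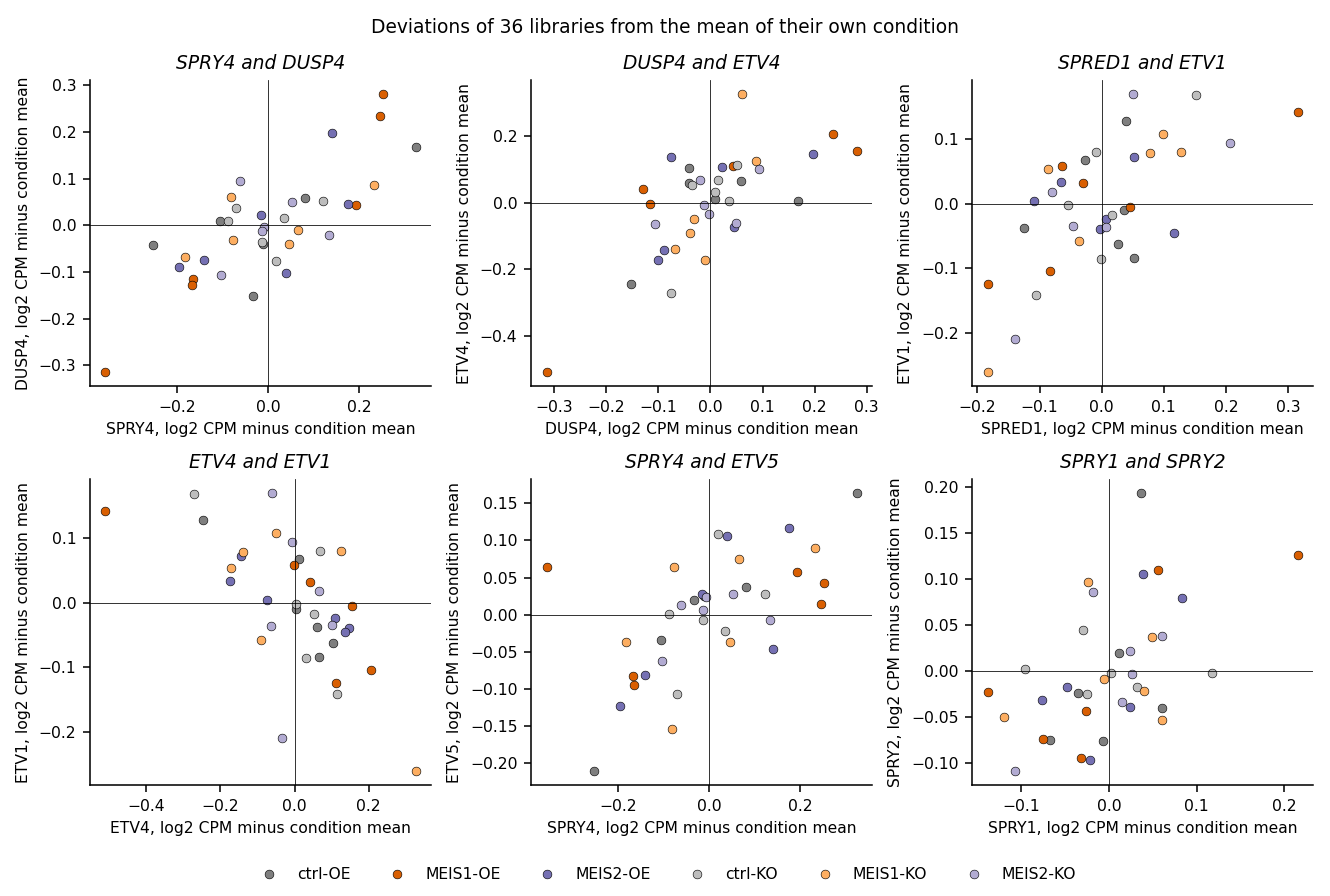
Log2 CPM minus the mean of the library's condition for the 6 pairs of genes that passed the permutation tests, with 1 point per library and colours for the 6 conditions. *ETV4* and *ETV1* deviate in opposite directions (r = -0.65), and the other 5 pairs deviate together; the MEIS1-OE library with the lowest *ETV4* is replicate 3.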

How the data were processed

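RNA was extracted from cryopreserved cells, and libraries were prepared with a stranded poly(A) kit and sequenced as paired 100-base reads. According to the methods and the processing notes, the authors aligned the reads to hg19 with STAR and counted them per gene with HTSeq 0.6.0. The methods name STAR 2.4.2a, and the submitters' notes name STAR 2.7.0a with Trimmomatic 0.39. The annotation and the strand setting of the counting are not given in the sources used here, so reads of genes on opposite strands may be mixed. The deposited values are raw counts per gene, all 36 columns were used (0 left out), and no sample was pooled.

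The 6 conditions were fitted together with edgeR 4.0.16 (TMM, quasi-likelihood F test, limma 3.58.1, R 4.3.3) over 19689 of 28516 genes, those whose counts added up to 10 or more across the libraries. Adjusted p-values (Benjamini-Hochberg) cover every gene in the fit, and the SE of a fold change is its absolute value divided by the square root of F. The fit was tested on simulated data. CPM values were computed from the deposited counts with TMM library sizes, and log2 CPM with a prior count of 2. Positions and promoters were read from GRCh37 with GENCODE. The figures and tables used Python 3.11.15 with pandas 2.3.3, scipy 1.17.1 and matplotlib 3.10.9.

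The 10 genes, the lists and the tests were chosen with earlier results of these data known. Besides the 10 genes, the text names at most 3 called genes per list and comparison, those with the largest absolute log2 fold change, and for *SPRY2*, *SPRY4* and *DUSP6* the 5 genes of most similar pattern. *FGF2*, *DHX8*, *DGKG* (by name alone), the cell type markers and the values of a named gene in further comparisons were given in addition. Alternatives were another scaling (RLE), other filters, another prior count, the replicate number as a block, a fit of only the groups compared, DESeq2 1.42.0, each replicate number left out, and, chosen after the data were seen, the libraries that stood apart left out. No pair of libraries within a condition agreed within sampling noise. The p-values rest on the spread between libraries, which includes counting error.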

Additional observations from a re-analysis of the deposited data

Results flagged for a closer look

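In 4 of the 60 groups formed by a gene and a condition, 1 library lay far from the other 5 by Dixon's criterion, and chance flags about 1 in 20 groups. *SPRY2* was at 139.7 CPM in ctrl-OE replicate 6, where the other ctrl-OE libraries had 116 to 124 CPM. *ETV4* accounted for the other 3. It was at 97.6 CPM in ctrl-OE replicate 4, where the others had 116 to 124 CPM. It was at 98.5 CPM in MEIS1-OE replicate 3, where the others had 139.98 to 162 CPM. It was at 73.4 CPM in ctrl-KO replicate 2, where the others had 88.9 to 95.9 CPM. Each of the 3 *ETV4* values is the lowest of its condition, and 2 of the 4 libraries, ctrl-OE replicate 6 and MEIS1-OE replicate 3, are among the 3 that stood apart across all genes.

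The effects of the paralogs differed by a direct test for 2 genes in the overexpression comparisons. *SPRED1* had a log2 fold change of -0.24 in MEIS1-OE against MEIS2-OE (adjusted p = 0.0120), and *SPRED2* of 0.13 (adjusted p = 0.0261), both by edgeR's quasi-likelihood test. The *SPRED1* call was lost under 4 of 17 alternatives (adjusted p up to 0.0904 in edgeR) and the *SPRED2* call under 5 (up to 0.132). For *SPRED1* 5 of 6 MEIS1-OE libraries were below every MEIS2-OE library, the exception being replicate 3, and for *SPRED2* 6 of 6 were above every MEIS2-OE library.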

How the results depend on the processing

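Over the 10 genes and 9 comparisons, 1530 values were recomputed under 17 alternatives each. Of these, 1466 kept their direction or stayed uncalled, 46 lost the call, 18 gained one and 0 calls were reversed; 73 values that were uncalled in both fits changed sign. With the additional limit of 0.58 on the absolute log2 fold change, 0 members were called in MEIS1-OE, MEIS2-OE, MEIS1-KO, MEIS2-KO and MEIS1-OE against MEIS2-OE, 2 between the controls and 1 in each contrast. When only the groups compared were fitted, 1 member was called in MEIS1-OE, 2 in MEIS1-KO and 1 in MEIS1-OE against MEIS2-OE. DESeq2 called 2 members in MEIS1-KO, as did the fits without MEIS1-OE replicate 3 and without the 3 libraries that stood apart. The last of these called 4 members in MEIS1-OE against MEIS2-OE. Over the alternatives the calls among all tested genes moved too, between 1152 and 3611 in MEIS1-OE and between 108 and 458 in MEIS1-KO. In MEIS1-OE against MEIS2-OE they lay between 1018 and 3000. Whether members gained or lost calls more often than other genes was not tested.

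Without the libraries of 1 replicate number, 1 to 6 members were called in MEIS1-OE, 1 to 3 in MEIS2-OE, 0 to 1 in MEIS1-KO, 3 to 4 in MEIS2-KO, 6 between the controls, 0 to 4 in MEIS1-OE against MEIS2-OE, 0 in MEIS1-KO against MEIS2-KO, 1 to 2 in the MEIS1 contrast and 2 to 3 in the MEIS2 contrast. The 6 members in MEIS1-OE were called without number 3, and the 1 member without number 2 or 4. Among all tested genes, the range over the alternatives was 1152 to 3611 in MEIS1-OE (1791 as reported), 163 to 306 in MEIS2-OE (266), 108 to 458 in MEIS1-KO (287), 946 to 2965 in MEIS2-KO (1974), 9004 to 10408 between the controls (10120), 1018 to 3000 in MEIS1-OE against MEIS2-OE (1526), 2 to 7 in MEIS1-KO against MEIS2-KO (3), 398 to 1512 in the MEIS1 contrast (686) and 226 to 914 in the MEIS2 contrast (506). The highest of these in MEIS1-OE, MEIS2-KO and both contrasts came from leaving out the 3 libraries that stood apart. Of 1458 recomputed list counts, 281 moved by more than 1.5 times, and of 135 recomputed co-variation values 20 moved, 2 of them among the 6 pairs described, and 0 reversed. The cause of these changes was not tested.

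The replicate numbers paired the samples unevenly. The mean correlation of same-numbered libraries' deviations from their condition means was 0.160, 0.046, 0.024, -0.0027, 0.031 and 0.337 for numbers 1 to 6. Of 15 pairs, 14 exceeded 0.1 for number 6 and 10 for number 1, but 4 for number 5. With the replicate number as a block, 2 members were called in MEIS1-KO, and over all tested genes 458, against 1 and 287 without the block.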
